A study of Mus musculus with 8 samples.

Results

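Transcript levels of 10 genes of TGF-beta activation and signalling were followed in RNA sequencing of mouse Treg cells with and without BRG1. The genes were fixed by name. They are *Tgfb1*, *Lrrc32*, *Itgav*, *Itgb8* and *Furin* for the ligand, its latent form and its activation, *Tgfbr1* and *Tgfbr2* for the receptors, and *Smad3*, *Smad7* and *Ski* for the signal inside the cell and its restraint. All 10 were found among the 53465 genes of the deposited files. The series holds 8 libraries, 1 per condition, each of Treg cells from spleen and lymph nodes of C57BL/6 mice aged 3–4 weeks. In the total Treg experiment, the WT library carried R26 CAG-FlpoER, Brg F/+ and Foxp3 YFP-Cre/+. Controls that the study calls WT were heterozygous for *Brg1*. The mosaic females carried R26 CAG-FlpoER and Brg F/ΔR. Their *Brg1*-sufficient cells, given with Foxp3 +/+, and their *Brg1*-deleted cells, given with Foxp3 YFP-Cre, gave a library each. The rKO1 mice carried R26 CAG-FlpoER, Brg F/ΔR and Foxp3 YFP-Cre/YFP-Cre, and gave an untreated library and, on Day 7 after tamoxifen (TAM), a *Brg1*-deleted and a *Brg1*-reexpressed library. The last is labelled Brg F/+, the state after reversal. The aTreg experiment holds 2 libraries of activated Treg cells (CD44hi CD62Llo) from treated rKO1 mice, also on Day 7. Both are given with R26 CAG-FlpoER and Foxp3 YFP-Cre/YFP-Cre, the one titled *Brg1*-deleted with Brg F/F and the one titled *Brg1*-reexpressed with Brg F/+. Cre is driven from the Foxp3 locus, so that the F allele is lost in Treg cells. The ΔR allele is a gene trap that TAM-activated FlpoER removes, and a low dose of TAM reverses it in a part of the cells. In rKO1 mice all Treg cells lack BRG1 before TAM and the mice are inflamed, whereas mosaic females are healthy. Inflammation, Foxp3 genotype and library can therefore not be told apart between rKO1 mice and the others.

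TGF-beta is made as a precursor that Furin cuts and that stays latent because its own propeptide wraps the cytokine. On Treg cells the latent complex is tethered by GARP, the product of *Lrrc32*, and it is opened by the integrin formed from *Itgav* and *Itgb8*. The free cytokine binds TGFBR2, which phosphorylates TGFBR1, which in turn phosphorylates SMAD3. SMAD7 blocks the receptor, and SKI holds SMAD complexes in a repressed state. The pathway is known for inducing *Foxp3* outside the thymus and for suppression by Treg cells.

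The steps named above can be read in the coding sequence of 3 of the genes, shown here because the members meet at these sites. The first stretch of *Tgfb1* lies in exon 5 at chr7:25697127-25697261 on the plus strand of GRCm38, and its capitals mark the integrin recognition triplet (arginine, glycine, aspartate, residues 244–246) and, 28 residues on, the furin site (residues 275–278 of 390). In *Tgfbr1*, on the plus strand, the capitals mark the glycine and serine motif that the type II receptor phosphorylates (residues 187–192 of 503), spliced from exons 3 and 4 between 47393459 and 47396371 of chromosome 4. In *Smad3*, on the minus strand at chr9:63650265-63650291 in exon 9, the capitals mark the end of the protein (residues 422–425 of 425), where TGFBR1 phosphorylates serines. All are coding sequence of GENCODE transcripts, written 5′ to 3′.
Tgfb1: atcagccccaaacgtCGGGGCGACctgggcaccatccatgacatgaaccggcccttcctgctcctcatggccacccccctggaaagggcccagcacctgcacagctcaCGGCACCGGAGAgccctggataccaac
Tgfbr1: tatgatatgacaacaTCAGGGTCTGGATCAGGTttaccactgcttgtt
Smad3: ccgagcatccgctgtTCCAGTGTGTCT

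The authors deposited FPKM values, that is, fragments divided by the exon length of the gene and by a library total. Reads were recovered from them, and levels are given here as FPKM scaled by the trimmed mean of M-values (TMM-scaled FPKM). This scale is per length, so that genes can be compared within a library, and levels were not compared between the 2 experiments, which were scaled separately. The libraries held 16324006–24093551 reads on genes, and the members had 93–3740 reads each. With 1 library per condition there is no replicate check and no test. A difference was called at 2-fold or more among genes at 5 CPM or more in 1 or both libraries, and each fold is given with an exact 95% interval of the 2 read counts. Intervals cover counting error only, since PCR reads are not independent molecules.

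*Smarca4*, the gene for BRG1, was at 13.6 in the WT, 11.9 in the mosaic *Brg1*-sufficient, 7.27 in the mosaic *Brg1*-deleted, 6.79 in the untreated rKO1, 5.56 in the *Brg1*-deleted rKO1 and 8.95 in the *Brg1*-reexpressed rKO1 library (TMM-scaled FPKM). The total Treg libraries thus followed their labels in the order of this level. The level is no measure of functional BRG1. The trapped allele still gives a transcript of its upstream exons, and a gene-level value counts these too. Of the aTreg libraries, the one labelled *Brg1*-deleted was at 11.0 and the one labelled *Brg1*-reexpressed at 9.17, against the labels, and the value column of the former is headed WT. Both are called by their labels below, and no direction of a BRG1 effect is read from them. All 7 T cell and Treg markers were above 3 reads in all 8 libraries. *Foxp3* itself was at 18.3 in the WT, 134 in the mosaic *Brg1*-sufficient, 61.3 in the mosaic *Brg1*-deleted and 26.5–43.4 in the rKO1 libraries, on an exon length that did not give whole reads. Of 8 platelet and megakaryocyte markers, 5 were at 0 in both mosaic libraries (*Ppbp*, *Gp1bb*, *Gp9*, *Treml1* and *Clec1b*), and the list summed to 0.26 and 0.317 there, to 28.7 in the WT library and to 54.8–130 in the rKO1 libraries. The 9 myeloid markers summed to 285–598 in the total Treg experiment, most of it *Cst3* and *Lyz2*. The 6 B cell markers summed to 8.32–50.7, 6 CD8 T or NK cell markers to 6.14–20.2, 6 stromal markers to 6.31–13.8 and 6 dendritic cell markers to 1.08–1.72.

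Within a library, *Lrrc32* was the highest of the 10 genes in 7 of 8 libraries and *Itgb8* the lowest in 8 of 8. In the *Brg1*-reexpressed rKO1 library *Tgfbr1* was the highest. Across the 6 total Treg libraries, *Smad7* ranged most widely, 6.3-fold from its lowest to its highest level, and *Itgav* least, 1.55-fold. *Itgb8* ranged 3.77-fold, *Tgfb1* 3.6-fold, *Ski* 3.45-fold, *Lrrc32* 3.3-fold and *Furin* 3.03-fold.

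**Figure D1:**
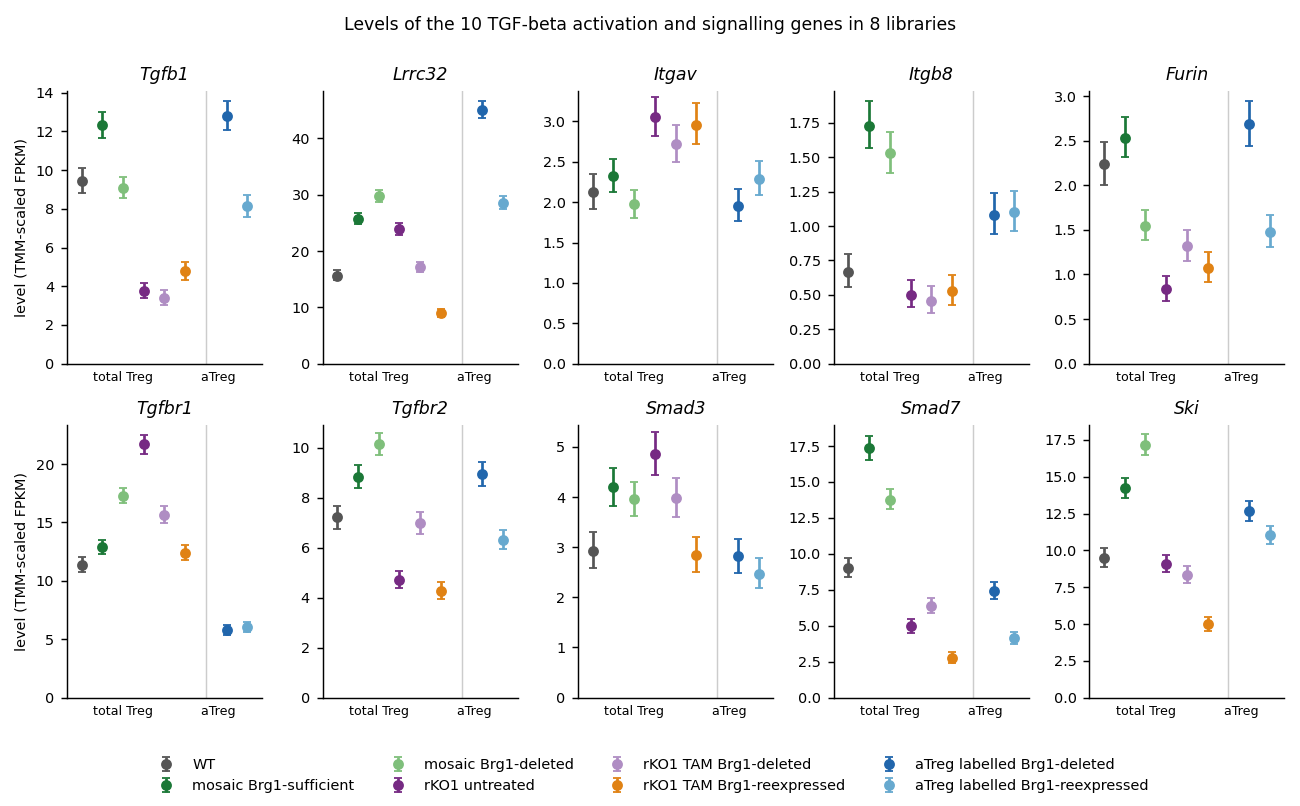
Level of each gene (TMM-scaled FPKM, linear axis from 0) in the 6 total Treg libraries, left of the grey line, and the 2 aTreg libraries, right of it, 1 point per library with its exact 95% counting interval. *Smad7* falls from 17.3 in the mosaic *Brg1*-sufficient to 2.75 in the *Brg1*-reexpressed rKO1 library, and *Tgfb1* lies at 3.42–4.78 in the rKO1 libraries against 9.07–12.3 in the others.

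*Tgfb1* (ENSMUSG00000002603, chr7:25687002-25705077, plus strand of GRCm38) encodes the cytokine. It was at 9.44 in the WT, 12.3 in the mosaic *Brg1*-sufficient, 9.07 in the mosaic *Brg1*-deleted, 3.77 in the untreated rKO1, 3.42 in the *Brg1*-deleted rKO1 and 4.78 in the *Brg1*-reexpressed rKO1 library, and at 12.8 and 8.14 in the aTreg libraries labelled *Brg1*-deleted and *Brg1*-reexpressed (TMM-scaled FPKM). The rKO1 libraries were low and did not overlap with the WT and mosaic libraries. In bulk RNA, fewer cells expressing a gene and less RNA of it per cell cannot be told apart. The untreated and the *Brg1*-deleted rKO1 library did not differ beyond counting error, and neither did the mosaic *Brg1*-deleted and the WT library. *Lrrc32* (ENSMUSG00000090958, chr7:98489283-98502181, plus strand) encodes GARP, the tether of latent TGF-beta on Treg cells. Its levels were 15.6, 25.8, 29.7, 23.9, 17.2 and 9.01 in the total Treg experiment, listed as for *Tgfb1*, and 45.1 and 28.6 in the aTreg libraries. The *Brg1*-reexpressed rKO1 library was the lowest and the mosaic *Brg1*-deleted library the highest, and every step between neighbours in the order of levels exceeded counting error.

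*Itgav* (ENSMUSG00000027087, chr2:83724397-83806916, plus strand) and *Itgb8* (ENSMUSG00000025321, chr12:119158022-119238802, minus strand) encode the chains of the activating integrin. *Itgav* was at 2.12, 2.32, 1.97, 3.06, 2.72 and 2.96 in the 6 total Treg libraries, and at 1.96 and 2.29 in the aTreg libraries (TMM-scaled FPKM). It was higher in all 3 rKO1 libraries than in the others. *Itgb8* was at 0.669, 1.73, 1.53, 0.500, 0.458 and 0.528, and at 1.08 and 1.10 in the aTreg libraries. The mosaic libraries were high, the WT library was 2.29-fold below the lower of them, and the 3 rKO1 libraries, with 93–106 reads each, could not be told from each other. The WT library came within counting error of the *Brg1*-reexpressed rKO1 library. *Furin* (ENSMUSG00000030530, chr7:80388585-80405436, minus strand) encodes the protease that cuts the precursor. It was at 2.24, 2.53, 1.55, 0.836, 1.32 and 1.08, and at 2.68 and 1.48 in the aTreg libraries. All 3 rKO1 libraries lay below the others, though the gap from the *Brg1*-deleted rKO1 to the mosaic *Brg1*-deleted library was within counting error. An antisense gene covers 5.9% of the exon bases of *Itgav* and another 1.29% of those of *Furin*. The sources used here give no strand setting, so their reads cannot be told apart.

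*Tgfbr1* (ENSMUSG00000007613, chr4:47353222-47414931, plus strand) encodes the type I receptor kinase and *Tgfbr2* (ENSMUSG00000032440, chr9:116084293-116175360, minus strand) the type II receptor that binds the ligand. *Tgfbr1* was at 11.4 in the WT, 12.9 in the mosaic *Brg1*-sufficient, 17.3 in the mosaic *Brg1*-deleted, 21.7 in the untreated rKO1, 15.7 in the *Brg1*-deleted rKO1 and 12.4 in the *Brg1*-reexpressed rKO1 library, and at 5.76 and 6.01 in the aTreg libraries (TMM-scaled FPKM). In the total Treg experiment the 3 libraries labelled as lacking BRG1 were the highest 3. No other member split this way. The split was picked after the values were seen, and no share of all genes is given for it. *Tgfbr2* was at 7.21, 8.84, 10.1, 4.72, 6.97 and 4.28, and at 8.93 and 6.32 in the aTreg libraries. It was low in the rKO1 libraries, of which the *Brg1*-deleted one came within counting error of the WT library.

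*Smad3* (ENSMUSG00000032402, chr9:63646767-63757994, minus strand) encodes a signal carrier. It was at 2.93, 4.19, 3.96, 4.85, 3.97 and 2.84 in the 6 total Treg libraries, and at 2.81 and 2.47 in the aTreg libraries (TMM-scaled FPKM). The WT and the *Brg1*-reexpressed rKO1 library were low and within counting error of each other. *Smad7* (ENSMUSG00000025880, chromosome 18, plus strand), the inhibitor of the receptor and itself a known target of TGF-beta signalling, was at 9.03, 17.3, 13.8, 4.95, 6.39 and 2.75, and at 7.41 and 4.15 in the aTreg libraries. The mosaic libraries were high and the rKO1 libraries low, the *Brg1*-reexpressed one lowest, and every step in the order exceeded counting error. *Ski* (ENSMUSG00000029050, chr4:155154075-155222592, minus strand), the SMAD corepressor, was at 9.49, 14.3, 17.2, 9.09, 8.34 and 4.97, and at 12.7 and 11.0 in the aTreg libraries. The *Brg1*-reexpressed rKO1 library was the lowest, and the *Brg1*-deleted rKO1, untreated rKO1 and WT libraries, next in the order, did not differ from one to the next beyond counting error.

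The mosaic pair compares cells with and without BRG1 in healthy mice. Its libraries also differ in the Foxp3 allele given (+/+ against YFP-Cre), and *Foxp3* itself was at least 2-fold lower in the *Brg1*-deleted library. The part of either was not tested. None of the 10 genes reached 2-fold, where 6.13% of the 10073 genes tested did (2.07% higher and 4.05% lower in the *Brg1*-deleted library, or 3.02% and 3.21% with libraries scaled by total reads only). Smaller differences exceeded counting error for 8 genes. The share of all genes tested that did so is not given, here or in the comparisons below. Among all genes tested, the 8 lay between percentile 8.35 (*Furin*) and 85.6 (*Tgfbr1*) of the log2 difference. *Furin* was 1.63-fold lower in the *Brg1*-deleted library (95% interval 1.42–1.88), *Tgfb1* 1.36-fold (1.25–1.47), *Smad7* 1.26-fold (1.17–1.35) and *Itgav* 1.18-fold (1.04–1.33). *Tgfbr1* was 1.34-fold higher there (1.26–1.42), *Ski* 1.2-fold (1.13–1.28), *Lrrc32* 1.15-fold (1.10–1.22) and *Tgfbr2* 1.15-fold (1.07–1.23). In the *Brg1*-deleted library, the ligand, its protease and 1 integrin chain had lower values, and both receptors, the tether and the corepressor higher values. *Itgb8*, 1.13-fold lower (0.983–1.3), and *Smad3*, 1.06-fold lower (0.935–1.2), were within counting error, and the sign for *Smad3* changed when libraries were scaled by total reads only. The median log2 difference was -0.13 over the 10 genes and -0.03 over all genes tested.

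The rKO1 pair after TAM compares reexpressed with deleted cells of inflamed mice. *Smad7* alone was called, 2.32-fold lower in the *Brg1*-reexpressed library (95% interval 1.97–2.74), with 209 against 530 reads. Of the 10323 genes tested, 12.8% differed 2-fold and 5.71% were 2-fold lower. *Lrrc32* was 1.91-fold lower (1.74–2.09), *Ski* 1.68-fold (1.5–1.88), *Tgfbr2* 1.63-fold (1.47–1.81), *Smad3* 1.4-fold (1.2–1.64) and *Tgfbr1* 1.26-fold (1.18–1.35). Both receptors and all 3 intracellular members therefore lay lower after reexpression. *Tgfb1* was the 1 gene with a higher value beyond counting error, 1.4-fold (1.21–1.63), or 0.14 on the log2 scale by total reads. *Furin*, *Itgav* and *Itgb8* were within it, and the latter 2 were higher by TMM but lower by total reads. Over the 10 genes the median log2 difference was -0.41, and over all genes tested 0.06. Scaling by total reads only moved every log2 difference of this pair by -0.35 and turned the split of all called genes from 7.08% higher and 5.71% lower to 3.79% and 11.9%. Beside these differences, 5 of the 9 myeloid markers were 2-fold lower in the *Brg1*-reexpressed library (*Lyz2*, *Cd68*, *Fcer1g*, *Tyrobp* and *Adgre1*), while the list summed to 345 against 366. Platelet markers summed to 54.8 against 86.3. Their part in the differences was not tested.

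**Figure D2:**
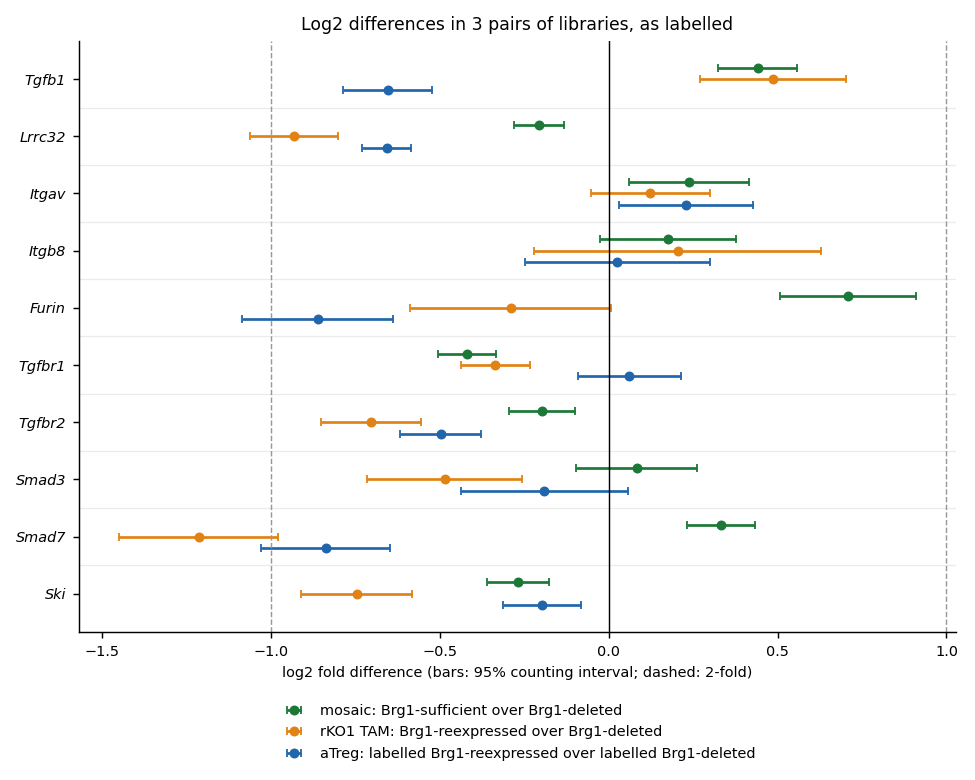
Log2 fold difference of each gene in the mosaic pair (*Brg1*-sufficient over *Brg1*-deleted), the rKO1 pair after TAM (*Brg1*-reexpressed over *Brg1*-deleted) and the aTreg pair (as labelled), with exact 95% counting intervals, a line at 0 and dashed lines at 2-fold. *Smad7* in the rKO1 pair is the only point past 2-fold, at -1.21, and *Lrrc32*, *Tgfbr1*, *Tgfbr2* and *Ski* lie below 0 in both the mosaic and the rKO1 pair.

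In the aTreg pair, none of the 10 genes differed 2-fold, where 6.45% of 10035 genes did. In the library labelled *Brg1*-reexpressed, *Furin* was 1.82-fold lower (95% interval 1.56–2.12), *Smad7* 1.79-fold (1.57–2.04), *Lrrc32* 1.58-fold (1.5–1.66), *Tgfb1* 1.57-fold (1.44–1.72), *Tgfbr2* 1.41-fold (1.3–1.53) and *Ski* 1.15-fold (1.06–1.24). *Itgav* was 1.17-fold higher (1.02–1.34). *Tgfbr1*, *Smad3* and *Itgb8* were within counting error, and the sign for *Itgb8* changed under scaling by total reads and under the deposited FPKM. The 10 genes had a median log2 difference of -0.35, and all genes tested one of -0.06. Platelet markers summed to 18.6 and 41.0 and myeloid markers to 548 and 893 in the libraries labelled *Brg1*-deleted and *Brg1*-reexpressed, and their part was not tested.

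The untreated rKO1 library was set against 3 references. Against the mosaic *Brg1*-deleted library, which like it lacks BRG1 but comes from healthy mice, 4 of 10 genes were 2-fold lower, where 6.98% of 10416 genes were. These were *Itgb8*, 3.06-fold lower (95% interval 2.47–3.82), *Smad7*, 2.78-fold (2.50–3.10), *Tgfb1*, 2.41-fold (2.14–2.72), and *Tgfbr2*, 2.15-fold (1.97–2.34). The call of *Tgfbr2* was lost with scaling by total reads (log2 difference -0.89) and with 1 added to the deposited FPKM (-0.90), and that of *Itgb8* with the latter (-0.74). *Ski* was 1.89-fold lower (1.75–2.04), *Furin* 1.85-fold (1.52–2.26) and *Lrrc32* 1.24-fold (1.18–1.31). In contrast, *Itgav* was 1.55-fold higher (1.38–1.74), *Tgfbr1* 1.26-fold (1.19–1.32) and *Smad3* 1.23-fold (1.08–1.39). *Smarca4* differed by 1.07-fold (0.979–1.17) between these libraries. Over the 10 genes the median was -0.90 on the log2 scale, and over all genes tested -0.05.

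Against the mosaic *Brg1*-sufficient library, 4 of 10 genes were 2-fold lower in the untreated rKO1 library, where 9.12% of 10457 genes were. They were *Smad7* (3.5-fold, 3.15–3.90), *Itgb8* (3.46-fold, 2.79–4.32), *Tgfb1* (3.27-fold, 2.91–3.68) and *Furin* (3.03-fold, 2.51–3.66). With 1 added to the deposited FPKM, *Itgb8* (-0.84) and *Furin* (-0.91) fell short of 2-fold, and by total reads *Tgfbr1* passed it as higher (1.10). *Lrrc32* was 1.08-fold lower (1.02–1.14), and its sign changed with scaling by total reads. Against the WT library, 2 genes were 2-fold lower, *Furin* (2.68-fold, 2.20–3.27) and *Tgfb1* (2.51-fold, 2.21–2.85), where 7.1% of 10471 genes were. *Furin* fell short with FPKM plus 1 (-0.86). *Tgfbr1*, just under the threshold, was 1.91-fold higher than in WT (1.78–2.04), *Smad3* 1.65-fold (1.42–1.92) and *Lrrc32* 1.53-fold (1.43–1.64), and the first 2 passed it by total reads (1.23 and 1.02 on the log2 scale). *Ski* was within counting error of WT, with a sign that depended on the scaling. The median log2 difference over the 10 genes was -0.78 against the mosaic *Brg1*-sufficient and -0.24 against the WT library, and -0.08 and -0.05 over all genes tested. These 3 comparisons share the untreated library. With scaling by total reads, the shares of genes 2-fold higher and lower went from 8.18% and 6.98% to 11.1% and 4.53% against the mosaic *Brg1*-deleted library, from 8.22% and 9.12% to 14.4% and 4.54% against the mosaic *Brg1*-sufficient library, and from 8.6% and 7.1% to 14.7% and 4.56% against WT.

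**Figure D3:**
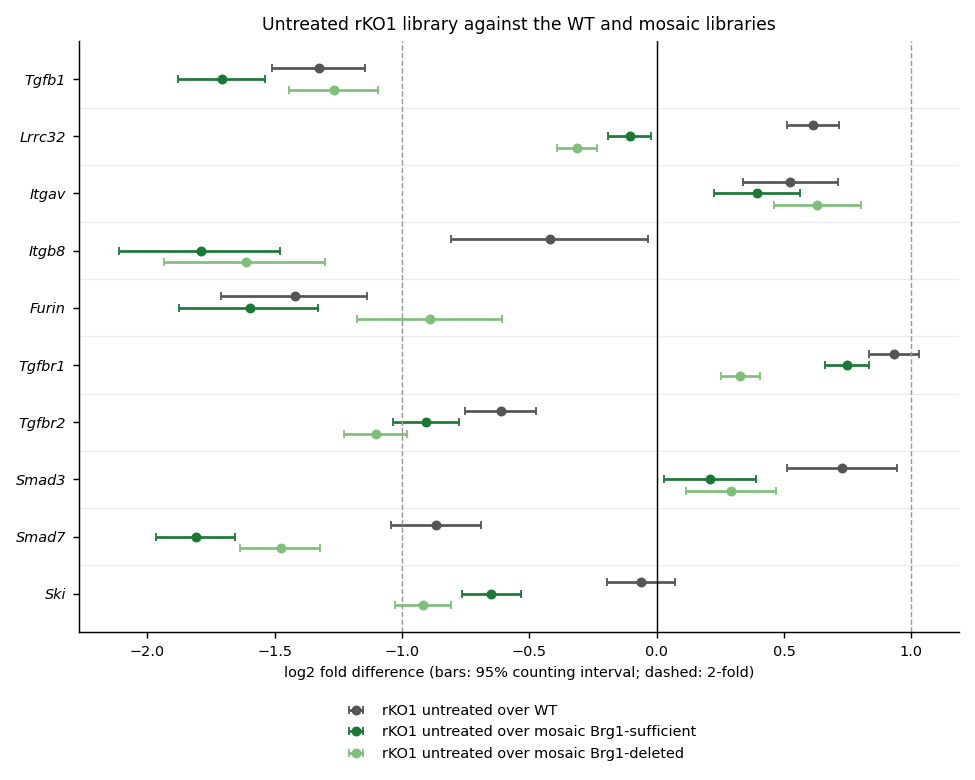
Log2 fold difference of each gene between the untreated rKO1 library and the WT, mosaic *Brg1*-sufficient and mosaic *Brg1*-deleted libraries, with exact 95% counting intervals, a line at 0 and dashed lines at 2-fold. *Tgfb1* is past 2-fold lower against all 3 references, at -1.33, -1.71 and -1.27, whereas *Itgav*, *Tgfbr1* and *Smad3* are above 0 against all 3.

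The separation held across all rKO1 libraries, whatever their BRG1 status. For 6 genes, *Tgfb1*, *Itgb8*, *Furin*, *Tgfbr2*, *Smad7* and *Ski*, all 3 rKO1 libraries lay below all 3 WT and mosaic libraries, and for *Itgav* all 3 lay above. The gap between the groups exceeded counting error for *Tgfb1*, *Smad7* and *Itgav* only. For *Itgb8*, *Furin*, *Tgfbr2* and *Ski* it was within counting error. Of 11042 genes at 5 CPM or more in any of the 6 libraries, 22.0% had no overlap, 12.5% with the rKO1 libraries lower and 9.51% with them higher. This grouping was chosen after the values were seen. When libraries were scaled by total reads, *Tgfbr2* and *Ski* overlapped and 5 genes remained, *Tgfb1*, *Itgb8*, *Furin* and *Smad7* lower and *Itgav* higher. Sums of marker lists moved with the same split. From the WT and mosaic to the rKO1 libraries, platelet markers went from 0.26–28.7 up to 54.8–130. B cell markers went from 30.8–50.7 down to 8.32–18.4, and T cell and Treg markers from 1368–1478 down to 1050–1291. The part of these marker lists in the differences was not tested.

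Deleted cells of treated mice were compared with untreated rKO1 cells, both without BRG1. None of the 10 genes differed 2-fold, where 4.42% of 10303 genes did (2.15% higher and 2.26% lower, or 1.77% and 2.98% by total reads). *Furin* was 1.58-fold higher after TAM (95% interval 1.27–1.96), *Tgfbr2* 1.48-fold (1.34–1.63) and *Smad7* 1.29-fold (1.13–1.47). *Lrrc32* was 1.39-fold lower (1.3–1.49), *Tgfbr1* 1.38-fold (1.3–1.47) and *Smad3* 1.22-fold (1.07–1.39). *Tgfb1*, *Itgav*, *Itgb8* and *Ski* were within counting error. Libraries of the same BRG1 status in the same strain thus differed by up to 1.58-fold in these genes. The median log2 difference was -0.13 over the 10 genes and 0.00 over all.

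The *Brg1*-reexpressed rKO1 library was also set against the mosaic *Brg1*-sufficient and WT libraries, whose cells kept a functional *Brg1* copy throughout. Against the mosaic *Brg1*-sufficient library, 7 of 10 genes were 2-fold lower, where 11.0% of 10333 genes were. *Smad7* was 6.3-fold lower (95% interval 5.45–7.31), *Itgb8* 3.28-fold (2.62–4.13), *Ski* 2.87-fold (2.59–3.18), *Lrrc32* 2.86-fold (2.63–3.11), *Tgfb1* 2.57-fold (2.30–2.88), *Furin* 2.35-fold (1.97–2.82) and *Tgfbr2* 2.07-fold (1.88–2.27). The call of *Tgfbr2* was lost by median of ratios (-0.99), with FPKM plus 1 (-0.85) and with FPKM plus 0.1 (-0.97), and those of *Itgb8* (-0.82) and *Furin* (-0.74) with FPKM plus 1. *Tgfbr1* was 1.04-fold lower (0.970–1.12), with a sign that changed under the deposited FPKM. Against the WT library, 2 genes were 2-fold lower, *Smad7* (3.28-fold, 2.80–3.85) and *Furin* (2.08-fold, 1.72–2.51), where 7.44% of 10314 genes were, and *Furin* fell short with FPKM plus 1 (-0.68). *Tgfb1* fell just short, 1.97-fold lower (1.75–2.23), as did *Ski*, 1.91-fold (1.70–2.14), and both passed 2-fold by total reads (-1.12 and -1.07). *Tgfbr1* was 1.09-fold higher than in WT (1.01–1.18) by TMM and lower by total reads. The median log2 difference was -1.3 against the mosaic *Brg1*-sufficient and -0.77 against the WT library, with -0.05 and 0.02 over all genes tested. By total reads, the shares of genes 2-fold higher and lower against WT went from 9.73% and 7.44% to 8.04% and 9.25%.

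The choice of reference mattered because the libraries with BRG1 differed from each other. All 10 genes had a higher value in mosaic *Brg1*-sufficient than in WT cells, under TMM and each other scaling, with a median log2 difference of 0.45 against 0.06 over all genes, of which 54.4% were above 0. *Itgb8* was called, 2.58-fold higher (95% interval 2.11–3.19), where 5.17% of 10130 genes were 2-fold higher, and fell short with FPKM plus 1 (0.67). *Smad7* was 1.92-fold higher (1.76–2.10), *Lrrc32* 1.65-fold (1.54–1.76), *Ski* 1.5-fold (1.38–1.63), *Smad3* 1.43-fold (1.23–1.66) and *Tgfb1* 1.3-fold (1.19–1.43). *Itgav* and *Furin* were within counting error. *Foxp3* was at 134 in the mosaic *Brg1*-sufficient and 18.3 in the WT library, and platelet markers summed to 0.26 and 28.7. The part of either was not tested.

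Ratios of genes that act as partners do not depend on the scaling of libraries, and 4 were computed after the values were seen. *Tgfbr1* to *Tgfbr2* was 1.58 (95% interval 1.45–1.72) in the WT, 1.46 (1.36–1.57) in the mosaic *Brg1*-sufficient and 1.71 (1.61–1.81) in the mosaic *Brg1*-deleted library, against 4.6 (4.24–4.99) in the untreated, 2.25 (2.08–2.43) in the *Brg1*-deleted and 2.9 (2.63–3.20) in the *Brg1*-reexpressed rKO1 library. The balance of the receptors was thus tilted to the type I receptor in the rKO1 libraries, most without TAM. In the aTreg libraries it was 0.645 (0.587–0.709) and 0.95 (0.865–1.04) as labelled *Brg1*-deleted and *Brg1*-reexpressed. *Smad3* to *Smad7*, a signal carrier to an inhibitor, was 0.325, 0.242 and 0.287 in the WT and mosaic libraries and 0.979, 0.622 and 1.03 in the rKO1 libraries, in the order above. *Smad3* thus came near to the level of *Smad7* in the untreated and the *Brg1*-reexpressed rKO1 library. *Smad2* was not part of this ratio. *Itgb8* to *Itgav* was 0.315 in WT, 0.744 and 0.776 in the mosaic libraries and 0.164, 0.169 and 0.178 in the rKO1 libraries, so that the rKO1 libraries differed little among themselves. *Furin* to *Tgfb1* was 0.171–0.237 in 5 of the total Treg libraries and 0.386 (0.324–0.460) in the *Brg1*-deleted rKO1 library.

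**Figure D4:**
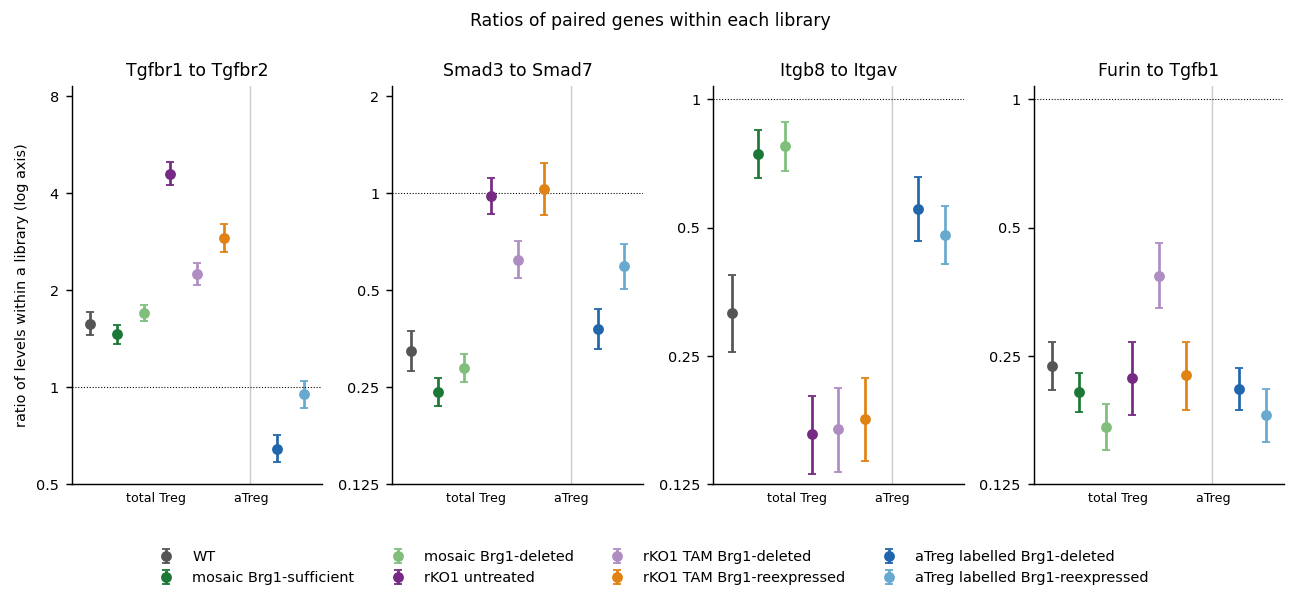
Ratio of the levels of 2 genes within each library, on a log axis with a dotted line at 1, with exact 95% counting intervals. *Tgfbr1* to *Tgfbr2* and *Smad3* to *Smad7* are higher, and *Itgb8* to *Itgav* lower, in the 3 rKO1 libraries than in the WT and mosaic libraries.

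Among 8599 genes with at least 5 CPM in all 6 total Treg libraries, those with a pattern most like *Smad7* were *Tmem158*, *Il6st* and *Foxp1*, with a mean absolute log2 difference in centred level of 0.16, 0.18 and 0.18. Those most like *Itgb8* were *Trim25*, *Usp24* and *Ttyh3*, at 0.13, 0.13 and 0.15. The comparison was over 6 libraries that share their scaling, and it is a description.

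Other genes of the pathway were described from 4 lists. Of 22 SMAD proteins, corepressors and negative regulators, 18 were tested in the mosaic pair, with none 2-fold different, against 6.13% of all genes tested, and a median log2 difference of 0.12. In the rKO1 pair 17 were tested, 4 were 2-fold lower in the *Brg1*-reexpressed library and none higher, against 5.71% of all genes tested 2-fold lower (11.9% by total reads). Of the 17, 3 lay above 0 and 14 below, with a median of -0.52 against 0.06 over all genes. These were *Smad1*, a carrier of BMP signals, from 2.41 to 0.599 (4.02-fold, 95% interval 3.05–5.38), the corepressor *Skil*, a relative of *Ski*, from 6.33 to 2.20 (2.88-fold, 2.55–3.25), and the ubiquitin ligases *Nedd4l*, from 0.296 to 0.116 (2.58-fold, 1.73–3.94), and *Smurf2*, from 6.44 to 2.70 (2.39-fold, 2.08–2.75). *Smad4*, the common partner of the SMADs, went from 17.6 to 12.3, and *Smad2* from 16.9 to 15.7.

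Of 19 other genes for ligands, latency and activation, 7 were tested in the mosaic pair, 1 higher and 2 lower in the *Brg1*-deleted library, where 2.07% of all genes tested were higher and 4.05% lower. *Ltbp4*, a binding protein of latent TGF-beta, was at 1.55 against 0.204 (7.6-fold higher, 95% interval 5.13–11.7). *Itgb1*, an integrin chain that also pairs with the product of *Itgav*, was at 6.59 against 28.8 (4.36-fold lower, 4.00–4.76). *Mmp9*, a gelatinase, had 1 read against 201. In the rKO1 pair 6 were tested and 1 was lower, against 5.71% of all genes. This was *Igf2r*, a receptor that binds latent TGF-beta, at 1.67 against 5.86 (3.52-fold lower, 3.07–4.05). The other ligands, *Tgfb2* and *Tgfb3*, stayed at or below 0.64 in all 8 libraries. Of 11 other receptors and co-receptors, 4 were tested in the mosaic pair and 1 was higher, against 2.07% of all genes. There *Acvr1c*, a type I receptor for activin and nodal, was 4.09-fold higher in the *Brg1*-deleted library (3.05–5.58, 1.14 against 0.279). In the rKO1 pair 2 were tested, and 1 of them, the co-receptor *Tgfbr3*, was 7.88-fold lower in the *Brg1*-reexpressed library (4.82–13.6), with 18 against 155 reads.

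Of 24 genes known to respond to TGF-beta, among them *Skil* and *Smurf2* of the list before, 21 were tested in each pair, with 6 of them 2-fold different in the mosaic pair, against 6.13% of all genes tested, and 6 in the rKO1 pair, against 12.8%. In the *Brg1*-deleted mosaic library, *Id3* (2.32-fold, 95% interval 2.27–2.37) and *Gpr83* (2.3-fold, 2.23–2.36) were higher, and *Id2* (4.49-fold, 4.21–4.78), *Rgs16* (2.63-fold, 1.88–3.73), *Gadd45b* (2.19-fold, 2.04–2.35) and *Bhlhe40* (2.12-fold, 1.71–2.65) were lower. In the *Brg1*-reexpressed rKO1 library, *Gpr83* (5.31-fold, 4.83–5.85), *Id3* (4.38-fold, 4.20–4.57), *Bhlhe40* (2.31-fold, 2.12–2.52), *Skil* and *Smurf2* were lower and *Ctla4*, an inhibitory receptor, was 2.86-fold higher (2.75–2.99). *Id3* and *Gpr83* thus had higher values in the *Brg1*-deleted library of both pairs, and *Bhlhe40* lay on opposite sides. The list had a median log2 difference of -0.25 in the mosaic pair (*Brg1*-deleted over *Brg1*-sufficient) and -0.29 in the rKO1 pair (*Brg1*-reexpressed over *Brg1*-deleted), against -0.03 and 0.06 over all genes tested. The list was not split by direction of response, so its median is no measure of a TGF-beta response. In the aTreg pair, 6.45% of all genes differed 2-fold. Of 17 tested SMAD and regulator genes, 1, *Nedd4l*, was 2-fold lower in the library labelled *Brg1*-reexpressed. Of 22 responsive genes 2, *Id2* and *Tgfbi*, were 2-fold higher there. Of 7 tested genes for ligands, latency and activation, *Mmp9* was 2-fold higher and *Igf2r* 2-fold lower there. No other receptor reached 5 CPM.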

How the data were processed

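Sorted Treg cells gave 8 RNA libraries by SMART-Seq v4, read from both ends. The authors deposited FPKM values, 1 column per library. Per the submitters' processing notes, HISAT2 2.0, StringTie 1.3.3b, featureCounts 1.5.0-p3 and mm10 were used. The annotation and each tool's role are not given in the sources used here. Each FPKM was multiplied by merged exon length (GENCODE M21, GRCm38, 53360 genes matched, 105 not) and divided by the value of 1 read. The results were whole within 0.02 for 93.4% of 26020 genes in the total Treg and 100.0% of 21242 in the aTreg experiment, and for all 10 members in every library. They were rounded, and each experiment was scaled by TMM in an own implementation (log-ratio trim 0.3, abundance trim 0.05), with factors of 0.867–1.17. After scaling, 1 read was 0.0411–0.0602 CPM. Values of 3 reads or fewer were set to 3 in folds. The study's filter (5 CPM in either library) and threshold (2-fold) were used without its adjusted p, which 1 library per group does not allow. Alternatives were total reads, median of ratios, deposited FPKM plus 1 or 0.1, a filter of 1 CPM or none, and 1.5-fold. All 10 members are named. Of the other lists, genes 2-fold different in the mosaic or rKO1 TAM pair are named, with the 3 genes most like each of the 2 members of widest range. *Tgfb2*, *Tgfb3*, *Smad2* and *Smad4* were named after their values were seen. Members and lists were chosen with earlier results of these data known. Scripts used Python 3.11.15, pandas 2.3.3, SciPy 1.17.1 and NumPy 2.4.6, with figures from matplotlib 3.10.9, and were tested on simulated data.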

Additional observations from a re-analysis of the deposited data

Results flagged for a closer look

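Values of 2 genes stood out because differences labelled alike, BRG1 present over absent, had opposite signs in 2 settings with both counting intervals clear of 0. *Smad7* had a log2 difference of 0.33 in the mosaic pair and -1.21 in the rKO1 pair after TAM. *Tgfb1* had 0.49 in the rKO1 pair after TAM and -0.65 in the aTreg pair as labelled. The *Smarca4* levels of that pair go against its labels. Turned to follow them, *Tgfb1* is at 0.65, the same sign as in the rKO1 pair. The same turn gives *Lrrc32* 0.66, *Smad7* 0.84, *Tgfbr2* 0.50 and *Ski* 0.20. These are opposite to the rKO1 pair, at -0.93, -1.21, -0.70 and -0.75, whereas as labelled they had the same sign. No direction of a BRG1 effect is read from the aTreg pair, so an opposite response of *Tgfb1* to BRG1 is not established. Each value rests on 1 library a side, and the difference between settings was not tested.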

How the results depend on the processing

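No paired analysis was possible because each condition has 1 library, and for the same reason no library could be left out in turn. The filter of 1 CPM or none changed no count of called genes. Scaling by median of ratios changed 1, from 7 to 6 for *Brg1*-reexpressed rKO1 against mosaic *Brg1*-sufficient, and FPKM plus 0.1 changed 2, the same one to 6 and that against WT from 2 to 3. A threshold of 1.5-fold gave 1 gene in the mosaic pair, 4 in the rKO1 pair after TAM, 7 for untreated rKO1 against each of WT, mosaic *Brg1*-sufficient and mosaic *Brg1*-deleted, 1 for *Brg1*-deleted rKO1 against untreated, 6 for *Brg1*-reexpressed rKO1 against WT, 4 for mosaic *Brg1*-sufficient against WT and 4 in the aTreg pair. Scaling by total reads only gave 4 genes at 2-fold in the rKO1 pair after TAM, 4 for untreated rKO1 against WT, 5 against mosaic *Brg1*-sufficient, 3 against mosaic *Brg1*-deleted and 4 for *Brg1*-reexpressed rKO1 against WT. Adding 1 to the deposited FPKM gave 1 for untreated rKO1 against WT, 2 against mosaic *Brg1*-sufficient, 2 against mosaic *Brg1*-deleted, 1 for *Brg1*-reexpressed rKO1 against WT, 4 against mosaic *Brg1*-sufficient and 0 for mosaic *Brg1*-sufficient against WT. A pseudocount of 1 lies above the levels of *Itgb8* in 4 of the total Treg libraries. Of 100 fold changes, 45 left their counting interval by total reads, 32 with FPKM plus 1, 4 with FPKM plus 0.1 and 0 by median of ratios, and no called fold changed sign.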
